A study of Mus musculus with 6 samples.

Results

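Aminoacyl-tRNA synthetases, the enzymes that load each amino acid onto its transfer RNA, were followed at the transcript level in cultured mouse esophageal epithelium. The 36 genes were chosen by symbol: 20 encode cytosolic enzymes or their subunits and 16 encode enzymes of the mitochondrion, out of 52636 genes in the deposited table. All 36 passed the filter on low values, which 18241 genes passed. The cultures were organoids, small epithelial structures grown in matrigel from esophagi of mice of the genotype Krt5CreER:RosaSmoM2, called K5:Smo. The Cre recombinase of this genotype is driven by the promoter of the basal keratin Krt5, and tamoxifen lets it turn on a Smoothened mutant, SmoM2, that signals in the Hedgehog pathway without ligand. Every group carried this allele. Esophagi were taken 5 days after tamoxifen and the cells were cultured for 13 days in KSFM medium. Each of the 3 groups had 2 libraries. One group received 500 nM A8301, which inhibits TGFb receptors. Another received 1 ng/ml TGFb1 together with 20 ng/ml BMP4. The last received the same ligands and doses plus 500 µM ibuprofen, a cyclooxygenase inhibitor. Treatment lasted 72 h and was renewed every 24 h. The age of the animals is not given. Since each group had either the inhibitor or the ligands, the effect of adding ligands and that of not inhibiting the receptor cannot be told apart, and the labels do not say whether the inhibitor was present in the ligand groups. Nor do they say if replicate libraries derive from different cultures or mice, so p-values measure the spread between these libraries, which may be technical.

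Each synthetase joins its amino acid to a tRNA at the cost of ATP, and the charged tRNA then carries the amino acid to the ribosome. Cytosolic synthetases serve translation of nuclear-encoded messages. A separate, nuclear-encoded set is imported into mitochondria to translate the few messages of the mitochondrial genome, while Gars and Kars encode the glycine and lysine enzymes of both compartments. Several cytosolic enzymes sit in the multisynthetase complex, held together by the scaffold proteins encoded by Aimp1, Aimp2 and Eef1e1. Many cytosolic synthetase genes are known targets of ATF4, a transcription factor whose protein accumulates when amino acids run short or other stress signals slow translation initiation.

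Depth, recovered from the spacing of the deposited values, was 6413871 to 7730571 reads per library. The lowest read number behind any synthetase value was 15, for the mitochondrial proline enzyme Pars2. All 7 epithelial markers examined (Krt5, Krt14, Trp63, Cdh1, Epcam, Krt13 and Krt4) were detected, with summed levels of 15910 to 18364 CPM (reads scaled to a common library size) with the inhibitor, 14738 to 18301 with the ligands and 12073 to 12858 with ibuprofen added. The 7 fibroblast markers summed to 165 to 227, 1859 to 2854 and 1482 to 1870 CPM in the same order, and all 7 passed the test as higher with the ligands. The 5 muscle markers summed to 515 to 592, 1045 to 1381 and 889 to 1158 CPM. The 6 immune markers summed to 3.95 to 10.8, 16.1 to 42.8 and 18.2 to 46.4 CPM, with Cd3e at 0 in the ligand group and Cd79a at 0 in the ibuprofen group. Most of the immune sum was Lyz2, at 2.90 and 10.1, 11.5 and 38.4, and 16.9 and 44.3 CPM. Itgam measured 0.45 and 0.3, 4.30 and 3.35, and 0.9 and 0.5 CPM, and Ptprc at most 0.5 CPM. Summed levels of 4 endothelial markers and of 4 glial markers stayed at or below 8.60 CPM. The epithelial markers did not move together: with the ligands 3 of 7 passed the test as higher and 3 as lower. The basal keratin Krt14 measured 2691 and 2553 CPM in the inhibitor libraries, 9097 and 7501 CPM with the ligands and 7735 and 8056 CPM with ibuprofen, and Epcam 46.5 and 57.0, 132 and 94.5, and 530.2 and 296 CPM. Among keratins of the differentiated layers, Krt13 measured 9331 and 8073 CPM in the inhibitor libraries, 3587 and 2759 CPM with the ligands and 634 and 1116 CPM with ibuprofen, and Krt4 3298 and 2158, 1145 and 311, and 2.899 and 1.249 CPM. Ribosomal protein genes took 2.72% ± 0.16 of the signal with the inhibitor, 1.36% with the ligands and 1.89% ± 0.11 with ibuprofen added, and the nuclear RNAs Malat1 and Neat1 together 1.65% ± 0.13, 2.92% ± 0.08 and 3.32% ± 0.02 (SD, n = 2). The part of these differences in the synthetase results was not tested, and in bulk RNA fewer cells of a type and less RNA per cell cannot be told apart.

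Per kilobase of exon, cytosolic synthetase transcripts were more abundant than mitochondrial ones. The length used was that of all annotated exons of a gene merged, such as 3.12 kb for Gars, 18.1 kb for Eprs, 4.54 kb for Farsa and 2.62 kb for Farsb. The order of genes depends on these lengths, and the SDs cover only the libraries. Before division by length Eprs had the highest cytosolic mean with the inhibitor, at 510 CPM beside 417 CPM for Gars. With the inhibitor the median level was 32.0 CPM per kb over the 20 cytosolic genes and 3.23 CPM per kb over the 16 mitochondrial genes. Gars, for glycine, was highest at 134 ± 1.17 CPM per kb, followed by Nars, for asparagine, at 94.97 ± 0.66, and Rars, for arginine, at 77.0 ± 0.36 (SD, n = 2). These differed from each other beyond their spread, whereas Sars, for serine, at 55.5 ± 0.77 and Lars, for leucine, at 54.8 ± 3.095 CPM per kb did not. The lowest cytosolic levels were those of Farsa, the alpha subunit of the phenylalanine enzyme, at 7.87 ± 0.12 CPM per kb, and of the glutamine enzyme gene Qars at 12.1 ± 0.05. The beta subunit gene Farsb stood at 44.1 ± 0.04 CPM per kb. Among mitochondrial genes the leucine enzyme Lars2 stood apart at 32.4 ± 1.64 CPM per kb, a level not separated by its spread from those of Cars (cysteine) at 32.6 ± 0.66 and Aars (alanine) at 31.4 ± 0.24. The next mitochondrial gene, Rars2, was at 14.9 ± 0.69, and from Cars2, at 2.45 ± 0.51, down to Pars2, at 1.58 ± 0.46 CPM per kb, neighbours in the order were not separated by their spread. With the ligands the class medians were 15.6 and 2.00 CPM per kb, and with ibuprofen added 19.9 and 1.83.

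**Figure D1:**
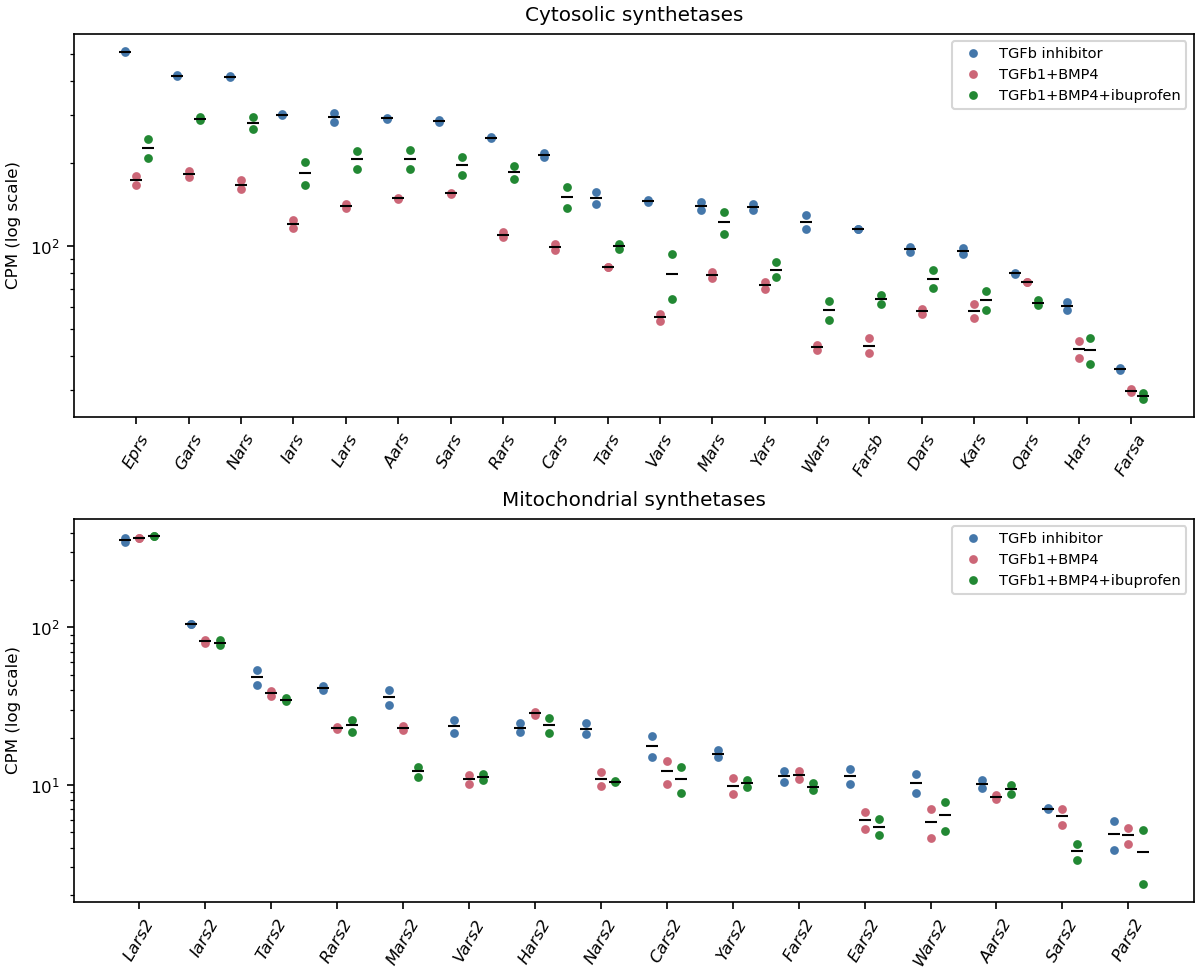
Level of each synthetase gene in CPM (log axis) in every library, cytosolic genes above and mitochondrial genes below, ordered by the inhibitor mean. Points are the 2 libraries of a group and dashes the group means. Summed over the 20 cytosolic genes, the means are 4158, 1938 and 2710 CPM with the inhibitor, the ligands, and the ligands plus ibuprofen.

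The first comparison asks how the synthetase genes stood with TGFb1 and BMP4 against the TGFb inhibitor. Of the 20 cytosolic genes 18 were lower with the ligands and 0 higher, with a median log2 change of −0.996, a 2.00-fold lower level. Of the 16 mitochondrial genes 8 were lower and 0 higher, with a median of −0.42. Most mitochondrial genes stood at lower levels, where adding 1 CPM before taking logs shrinks changes more. Their SE reached 0.32 (Pars2), beside at most 0.15 (Vars) among cytosolic genes. The part of this in the difference between the classes was not tested. Over all genes tested, limma at an adjusted p under 0.05 called 40.1% in either direction, 19.5% as lower and 20.6% as higher, with a median change of 0.00. Summed levels of the cytosolic genes were 4158 ± 10.5 CPM in the inhibitor group and 1938 ± 19.8 CPM in the ligand group, and those of the mitochondrial genes 748 ± 37.8 and 651 ± 14.9 CPM (SD, n = 2). Without Lars2, the mitochondrial sums were 389 ± 19.7 and 281 ± 13.7 CPM. All 20 cytosolic genes had lower levels in both ligand libraries than in either inhibitor library, against 36.6% of all genes, and so had 11 of the 16 mitochondrial genes, while 1, Hars2, was higher in both, against 35.5% (72.2% in either direction). The mitochondrial count rests on few libraries: it was 3 without TGFb inhibitor replicate 1 and 5 without TGFb1+BMP4 replicate 1, whereas the cytosolic count stayed at 17 or 18 whichever library was left out. Over all genes, 4697 were called without TGFb inhibitor replicate 1 and 4781 without replicate 2, in place of 7308.

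Eprs encodes the fused enzyme for glutamate and proline, and lies at chr1:185363044-185428360 on the plus strand (GENCODE vM21 on GRCm38, as for all positions of genes here). Its inhibitor libraries measured 512 and 507 CPM, and its ligand libraries 167 and 181 CPM. Both ligand libraries were thus far below both inhibitor libraries, and Eprs fell by 1.53 on the log2 scale (SE 0.10, limma adjusted p = 1.05e-05), the largest cytosolic change. Gars (chr6:55038007-55079500, plus strand) measured 414 and 419.6 CPM with the inhibitor against 179 and 188 CPM with the ligands. The groups did not overlap, and Gars fell by 1.17 (SE 0.08, limma adjusted p = 2.07e-05). Farsb (chr1:78417975-78488897, minus strand) went from 116 and 116 CPM to 40.7 and 46.3 CPM. Its libraries were lower with the ligands in each case, with a fall of 1.38 on the log2 scale (SE 0.10, limma adjusted p = 2.13e-05). Wars, for tryptophan (chr12:108860030-108894174, minus strand), went from 130.0 and 115 CPM to 43.7 and 42.0 CPM. The spread of the inhibitor pair was small beside the difference, and Wars fell by 1.48 (SE 0.11, limma adjusted p = 2.65e-05). Nars (chr18:64499647-64516652, minus strand) had 412 and 416 CPM in the inhibitor libraries and 173 and 162 CPM in the ligand libraries. It fell by 1.28 (SE 0.10, limma adjusted p = 2.67e-05), with no overlap. Rars (chr11:35808381-35834506, minus strand) had 248 and 249 CPM in the inhibitor libraries and 108 and 112 CPM in the ligand libraries. It fell by 1.15 (SE 0.09, limma adjusted p = 2.83e-05), again without overlap.

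The other 12 cytosolic genes called fell by 0.49 (Hars, for histidine) to 1.37 (Vars, for valine) on the log2 scale. Hars was the only one of the 18 whose call was lost when a library was left out, which happened for TGFb inhibitor replicate 1 or 2 and for TGFb1+BMP4 replicate 1, with limma adjusted p-values of 0.0898, 0.0568 and 0.0799. Genes encoding enzymes of the multisynthetase complex (Eprs, Iars, Lars, Mars, Qars, Rars, Kars and Dars) were lower for 7 of 8, and the free cytosolic enzymes for 11 of 12, with medians of −0.93 and −1.02. By catalytic fold, class I enzymes were lower for 8 of 9, and class II for 9 of 10. The gene with the largest adjusted p was Qars (chr9:108507706-108515941, plus strand), with 79.9 and 79.4 CPM in the inhibitor libraries and 74.0 and 74.0 CPM in the ligand libraries. The log2 difference was −0.09 (SE 0.09, 95% interval −0.30 to 0.12, limma adjusted p = 0.484), although the libraries of the groups did not overlap. The other cytosolic gene not called was Farsa, at 36.1 and 35.3 CPM and then 29.5 and 30.1 CPM, with a log2 difference of −0.24 (95% interval −0.49 to 0.02, limma adjusted p = 0.130). Farsb, which encodes its partner subunit in the same enzyme, had an interval of −1.60 to −1.15, and the difference between the subunits was not tested.

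**Figure D2:**
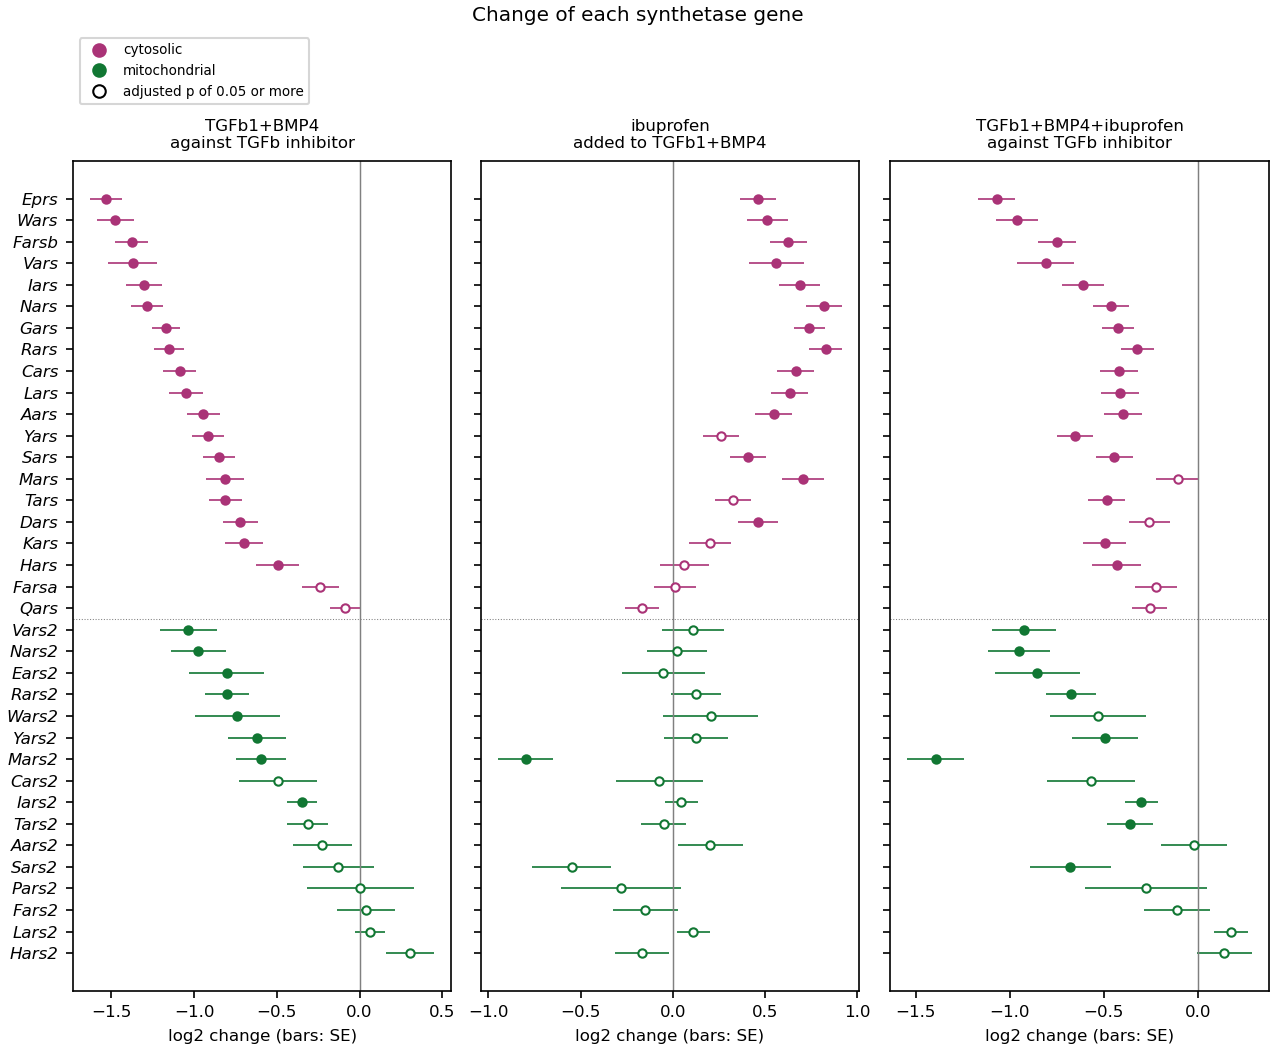
Log2 change of each synthetase gene in the 3 comparisons, with bars of 1 SE. Filled points passed an adjusted p of 0.05 and open points did not. Cytosolic genes lie below 0 in the left panel (18 of 20 called) and mostly above 0 in the middle panel (14 of 20 called), where 1 of 16 mitochondrial genes, Mars2, was called, below 0.

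Among mitochondrial genes the smallest adjusted p was that of Vars2, for valine (chr17:35655634-35667592, minus strand), which measured 25.9 and 21.5 CPM in the inhibitor libraries and 11.6 and 10.1 CPM in the ligand libraries. The groups did not overlap, and Vars2 fell by 1.03 (SE 0.17, limma adjusted p = 0.0016). Rars2, for arginine (chr4:34614957-34660167, plus strand), had 40.0 and 42.7 CPM in the inhibitor libraries and 22.6 and 23.3 CPM in the ligand libraries. It was lower in both ligand libraries, by 0.80 on the log2 scale (SE 0.13, limma adjusted p = 0.00177). Nars2, for asparagine (chr7:96951505-97064758, plus strand), had 20.9 and 24.6 CPM in the inhibitor libraries and 9.90 and 12.04 CPM in the ligand libraries. It fell by 0.97 (SE 0.16, limma adjusted p = 0.00187), without overlap. These were the 3 mitochondrial calls kept when TGFb inhibitor replicate 1 was left out. The calls of Mars2, Iars2, Yars2, Ears2 and Wars2, with falls of 0.35 to 0.80, had adjusted p-values of 0.0133 to 0.0469. Lars2 (chr9:123366927-123462666, plus strand) had 372 and 346 CPM in the inhibitor libraries and 369 and 371 CPM in the ligand libraries, so the groups overlapped, and the log2 difference was 0.06 (95% interval −0.14 to 0.27). Hars2, for histidine, was at 24.6 and 21.6 CPM and then 27.9 and 29.0 CPM, a difference of 0.31 that did not pass the test (limma adjusted p = 0.127). Pars2 (chr4:106651069-106655282, plus strand), with the largest adjusted p, had 5.90 and 3.90 CPM in the inhibitor libraries and 5.35 and 4.25 CPM in the ligand libraries. These overlapped, and the interval of the difference, −0.73 to 0.74 on the log2 scale, was wide at this depth.

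Promoter sequences were examined for the cytosolic genes because ATF4 binds with C/EBP partners at an element that begins TGATGNAA. The RefSeq promoter windows of GRCm38.p6, 250 bases before to 50 after a start, held 13 of the 20 cytosolic and 14 of the 16 mitochondrial genes. TGATGNAA on either strand was present in 5 of the 13 cytosolic genes (38.5%: Aars, Gars, Iars, Tars and Yars), in 0 of the 14 mitochondrial genes and in 4.51% of 27025 genes in the table. CACGTG, the E-box bound by MYC and other factors, was present in 4 of the 13 (Aars, Farsb, Iars and Tars), in 1 of the 14 (Ears2) and in 8.09% of all genes. The 4 promoters below are those with TGATGNAA whose genes had the smallest adjusted p in the first comparison, each 300 bases 5′ to 3′ on the plus strand. Capitals mark the match, printed as its reverse complement where it lies on the minus strand, as in Gars, Iars and Aars. The windows are chr6:55037751-55038050 for Gars, chr13:49681880-49682179 for Iars, chr8:111033592-111033891 for Aars and chr4:129189653-129189952 for Yars.
Gars: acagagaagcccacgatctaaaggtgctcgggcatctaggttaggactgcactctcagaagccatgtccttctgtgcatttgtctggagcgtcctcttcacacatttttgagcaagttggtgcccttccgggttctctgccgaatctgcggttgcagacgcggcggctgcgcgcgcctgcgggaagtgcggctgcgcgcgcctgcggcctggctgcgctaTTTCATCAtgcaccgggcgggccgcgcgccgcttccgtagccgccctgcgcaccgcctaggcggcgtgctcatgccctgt
Iars: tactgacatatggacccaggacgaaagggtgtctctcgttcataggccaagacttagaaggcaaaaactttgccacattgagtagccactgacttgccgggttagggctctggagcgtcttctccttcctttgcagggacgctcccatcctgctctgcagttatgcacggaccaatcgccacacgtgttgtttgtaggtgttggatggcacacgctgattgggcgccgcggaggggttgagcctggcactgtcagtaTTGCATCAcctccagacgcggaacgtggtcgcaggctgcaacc
Aars: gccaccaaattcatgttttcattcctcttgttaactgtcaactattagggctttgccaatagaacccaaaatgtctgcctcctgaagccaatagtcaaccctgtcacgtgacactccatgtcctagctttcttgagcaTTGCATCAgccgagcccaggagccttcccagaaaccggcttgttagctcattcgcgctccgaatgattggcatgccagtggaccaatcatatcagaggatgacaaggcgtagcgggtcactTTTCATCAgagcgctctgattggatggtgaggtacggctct
Yars: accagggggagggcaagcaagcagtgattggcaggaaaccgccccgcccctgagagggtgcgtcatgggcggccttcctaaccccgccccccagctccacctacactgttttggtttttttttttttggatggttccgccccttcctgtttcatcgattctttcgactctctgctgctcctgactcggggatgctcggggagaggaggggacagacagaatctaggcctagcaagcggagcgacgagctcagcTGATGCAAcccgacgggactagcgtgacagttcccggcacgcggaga
The match in Gars began 30 bases before the start, those in Aars 112 bases before it and at base 10 after it, and those in Iars and Yars at base 8 and base 4 of the transcribed part. In the first comparison all 5 genes with a match were lower, with changes of −1.30 to −0.81 and a median of −0.95, and 6 of the 8 cytosolic genes with a window but no match were lower, with changes of −1.53 to −0.09 and a median of −0.77. Eprs, with the largest fall, had no match in its window. With ibuprofen added, 3 of the 5 with a match and 5 of the 8 without were higher (10.6% of all genes), with medians of 0.55 and 0.43. Against the inhibitor, the ibuprofen group was lower for 5 and 4 of them (19.2% of all genes), with medians of −0.49 and −0.35. Split by CACGTG, 4 of 4 with it and 7 of 9 without were lower with the ligands (19.5% of all genes), with medians of −1.12 and −0.81. Differences between these sets were not tested. A match is a description of these letters and not a bound site.

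The second comparison asks what ibuprofen changed when it was added to the ligands. Of the 20 cytosolic genes 14 were higher and 0 lower, with a median log2 change of 0.53, or 1.44-fold. Of the 16 mitochondrial genes 0 were higher and 1, Mars2, was lower, with a median of −0.01. Over all genes limma called 19.3% in either direction, 10.6% as higher and 8.68% as lower. With CPM as deposited and no further factor, the 1937 higher and 1584 lower genes became 1549 higher and 2037 lower, and the cytosolic count 13 higher. Both ibuprofen libraries lay above both ligand libraries for 16 cytosolic and 2 mitochondrial genes, against 24.2% of all genes, and below them for 2 cytosolic genes, Qars and Farsa, and 5 mitochondrial genes, against 34.5% of all genes (58.8% in either direction). The summed cytosolic level was 1938 ± 19.8 CPM and then 2710 ± 205 CPM, between the ligand and inhibitor levels, while the mitochondrial sum was 651 ± 14.9 and then 635 ± 7.98 CPM (SD, n = 2). The ligand libraries enter this comparison and the first with opposite signs, so the 2 sets of changes are not independent and are given side by side only. The cytosolic count was 10 to 13 when 1 library was left out. Over all genes, 1582 were called without ibuprofen replicate 1 and 2256 without TGFb1+BMP4 replicate 2, in place of 3521.

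Rars measured 108 and 112 CPM with the ligands and 196 and 176 CPM with ibuprofen added, below the 248 and 249 CPM of the inhibitor libraries. The groups did not overlap, and Rars rose by 0.83 on the log2 scale (SE 0.09, limma adjusted p = 0.000545). Gars went from 179 and 188 CPM to 294 and 287 CPM. Its libraries were higher with ibuprofen in each case, by 0.74 (SE 0.08, limma adjusted p = 0.000699). Nars went from 173 and 162 CPM to 294 and 268 CPM. It rose by 0.82 (SE 0.10, limma adjusted p = 0.000857), and again the groups stood apart. Cars, for cysteine (chr7:143557230-143600090, minus strand), went from 97.0 and 102 CPM to 164 and 137 CPM. It rose by 0.67 (SE 0.10, limma adjusted p = 0.00244), with a wider spread in the ibuprofen pair. Lars (chr18:42202298-42262194, minus strand) went from 143 and 138 CPM to 222 and 192 CPM. It rose by 0.63 (SE 0.10, limma adjusted p = 0.00337), without overlap. Mars, for methionine (chr10:127296221-127311786, minus strand), went from 80.5 and 76.3 CPM to 134 and 111 CPM. It rose by 0.71 (SE 0.11, limma adjusted p = 0.00344), and its first ibuprofen library was close to the inhibitor libraries at 136 and 145 CPM.

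The other 8 cytosolic genes called rose by 0.41 (Sars) to 0.69 (Iars, for isoleucine). Eprs, with the largest fall under the ligands, went from 167 and 181 CPM to 246 and 209 CPM, a rise of 0.46 (SE 0.10, limma adjusted p = 0.0125) that lost its call without ibuprofen replicate 1 (limma adjusted p = 0.0777). The calls of Dars, Sars, Vars and Wars were likewise lost in at least 1 fit without a library, and none of the other 9 was. Vars also lost its call with no factor, with no filter on low values and with only the 2 groups compared (limma adjusted p = 0.0634, 0.109 and 0.0634). Without ibuprofen replicate 1 its log2 change was 0.30 in place of 0.56. Sars lost its call with no filter as well (limma adjusted p = 0.0592). Complex enzymes were higher for 6 of 8 and free enzymes for 8 of 12. The genes not called were Tars (log2 difference 0.33, limma adjusted p = 0.0503), Yars (0.26), Kars (0.20), Hars (0.06), Farsa and Qars. Tars (threonine) passed with RLE factors, a pseudocount of 5, a minimum of 5 CPM and the replicate number as a block, with limma adjusted p-values of 0.0471, 0.05, 0.0452 and 0.0455. The direction for Hars and Farsa turned with the scaling, to −0.01 and −0.06 with no factor. Farsa had the largest adjusted p, with 29.5 and 30.1 CPM and then 27.7 and 29.3 CPM, nearly level between the groups, and a log2 difference of 0.01 (95% interval −0.24 to 0.27, limma adjusted p = 0.948). Qars went from 74.0 and 74.0 CPM to 63.7 and 61.0 CPM, with a difference of −0.17 (limma adjusted p = 0.249), and so had its lowest levels in the libraries with ibuprofen.

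Mars2, the mitochondrial methionine enzyme (chr1:55237177-55248470, plus strand), was the 1 mitochondrial gene called. It measured 40.0 and 32.1 CPM in the inhibitor libraries, 22.4 and 23.8 CPM with the ligands and 11.3 and 13.1 CPM with ibuprofen added. No groups overlapped, and each later group was lower than the one before, so Mars2 went down in the step in which cytosolic Mars went up. With ibuprofen it fell by 0.80 (SE 0.15, limma adjusted p = 0.00751), a call lost without ibuprofen replicate 1 (−0.69, limma adjusted p = 0.0567). Sars2, the mitochondrial serine enzyme, was next in order of adjusted p, at 5.60 and 7.10 CPM and then 3.35 and 4.25 CPM, which did not overlap, with a difference of −0.55 (limma adjusted p = 0.111). After it came Lars2, at 369 and 371 CPM and then 378 and 379.9 CPM, which stood apart narrowly, with a log2 difference of 0.11 (limma adjusted p = 0.428). Nars2 had the largest adjusted p, at 9.90 and 12.04 CPM and then 10.4 and 10.6 CPM, which overlapped, with a difference of 0.02 (95% interval −0.35 to 0.40, limma adjusted p = 0.941). The differences of the other 12 lay between −0.28 (Pars2) and 0.20 (Aars2 and Wars2).

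For 13 amino acids the cytosolic and the mitochondrial enzyme were each encoded by 1 separate gene among the 36, which allowed a comparison within pairs. Glutamate and proline, which share Eprs in the cytosol, and phenylalanine, whose cytosolic enzyme has 2 subunit genes, were not among these pairs. With the ligands, the cytosolic change lay below that of its mitochondrial partner in 13 of 13 pairs, with a median difference of −0.59 on the log2 scale, from −0.22 for Mars and Mars2 to −1.11 for Lars and Lars2. With ibuprofen added it lay above its partner in 13 of 13, with a median difference of 0.52, from 0.14 for Yars and Yars2 to 1.503 for Mars and Mars2. The ligand libraries are shared between these counts. Against the inhibitor, the ibuprofen group had the cytosolic change below in 7 pairs and above in 6, with a median difference of −0.12. The genes outside these pairs lay below their counterparts there, with log2 changes of −1.07 for Eprs against −0.85 for Ears2 and −0.28 for Pars2, and of −0.75 for Farsb and −0.22 for Farsa against −0.11 for Fars2. The ratio of Mars to Mars2 in CPM, not corrected for length, was 3.39 and 4.51 with the inhibitor, 3.596 and 3.21 with the ligands and 11.8 and 8.47 with ibuprofen. It was therefore similar in the first 4 libraries and higher in both ibuprofen libraries. These differences between partners are descriptions without a test.

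**Figure D3:**
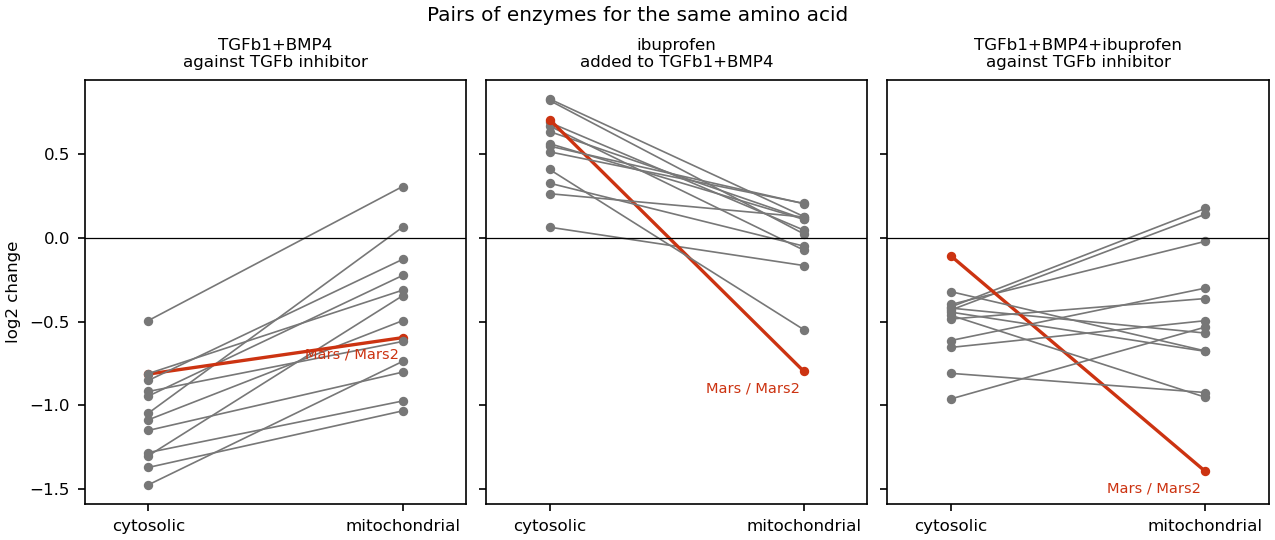
Log2 change of the cytosolic (left) and mitochondrial (right) enzyme for each of 13 amino acids, joined by lines, in the 3 comparisons. The pair for methionine is drawn in red. Lines run upward in all 13 pairs with the ligands and downward in all 13 with ibuprofen added.

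The third comparison asks how far the group with ligands and ibuprofen stood from the inhibitor group. Of the 20 cytosolic genes 16 were lower and 0 higher, with a median log2 change of −0.44, and of the 16 mitochondrial genes 9 were lower and 0 higher, with a median of −0.51. Over all genes limma called 40.3%, of which 19.2% of genes tested were lower and 21.2% higher. All 20 cytosolic genes lay lower in both ibuprofen libraries than in either inhibitor library, against 41.5% of all genes, as did 12 of the mitochondrial genes, while 1, Lars2, lay higher, against 30.9% of all genes (72.4% in either direction). The cytosolic median was thus smaller than in the first comparison, at −0.996, while the mitochondrial median was −0.42 there. The mitochondrial count was 4 without TGFb inhibitor replicate 1, 5 without ibuprofen replicate 1 and 6 without TGFb inhibitor replicate 2, and 6 with no filter on low values. Over all genes, 4660 were called without TGFb inhibitor replicate 1 and 4884 without replicate 2, in place of 7356.

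Eprs, at 512 and 507 CPM with the inhibitor and 246 and 209 CPM with ligands and ibuprofen, fell by 1.07 on the log2 scale (SE 0.10, limma adjusted p = 6.65e-05). Wars, at 130.0 and 115 CPM and then 63.1 and 53.9 CPM, fell by 0.96 (limma adjusted p = 0.000251). Farsb, at 116 and 116 CPM and then 61.5 and 66.6 CPM, fell by 0.75 (limma adjusted p = 0.000534). In all 3 genes the ibuprofen libraries were well below the inhibitor libraries. Yars, for tyrosine (chr4:129189760-129219607, plus strand), was at 135 and 142 CPM and then 87.4 and 77.1 CPM, and fell by 0.65 (limma adjusted p = 0.000882). Iars (chr13:49682100-49734267, plus strand) was at 301 and 302 CPM and then 203 and 167 CPM, and fell by 0.61 (limma adjusted p = 0.00261). Vars (chr17:35000987-35016322, plus strand) was at 147 and 145 CPM and then 93.7 and 64.2 CPM, and fell by 0.81 (limma adjusted p = 0.00294). The groups did not overlap for any of these, though the 2 ibuprofen libraries of Vars were far apart. The other 10 cytosolic genes called fell by 0.32 (Rars) to 0.50 (Kars), and the calls of Hars, Aars, Kars, Rars, Cars and Lars were lost in at least 1 fit without a library. Mars had the largest adjusted p, at 136 and 145 CPM and then 134 and 111 CPM, which stood apart narrowly, with a difference of −0.11 (95% interval −0.37 to 0.15, limma adjusted p = 0.488). Qars (−0.26), Dars (−0.26) and Farsa (−0.22) were also not called, and with no factor all 3 were.

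Of the mitochondrial genes Mars2 differed most, at 40.0 and 32.1 CPM in the inhibitor libraries and 11.3 and 13.1 CPM with ligands plus ibuprofen, with no overlap and a fall of 1.39 (SE 0.15, limma adjusted p = 0.000165). Nars2, at 20.9 and 24.6 CPM and then 10.4 and 10.6 CPM, fell by 0.95 (SE 0.16, limma adjusted p = 0.00205). Vars2, at 25.9 and 21.5 CPM and then 10.7 and 11.7 CPM, fell by 0.92 (SE 0.17, limma adjusted p = 0.00277). For both, these libraries overlapped with those that had the ligands alone. The other 6 called, Rars2, Ears2, Iars2, Sars2, Tars2 and Yars2, fell by 0.30 to 0.85. Aars2, for alanine (chr17:45506841-45520843, plus strand), had the largest adjusted p, at 9.59 and 10.7 CPM and then 9.995 and 8.74 CPM, which overlapped, with a difference of −0.02 (95% interval −0.42 to 0.38, limma adjusted p = 0.936).

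Genes that work beside the synthetases moved unequally. The 3 scaffold genes of the multisynthetase complex were all lower with the ligands, with log2 changes of −1.03 for Eef1e1 (limma adjusted p = 0.000606), −0.62 for Aimp2 (limma adjusted p = 0.00714) and −0.40 for Aimp1 (limma adjusted p = 0.0159). With ibuprofen added Eef1e1 rose by 0.53 (limma adjusted p = 0.0309), while the differences of Aimp2, 0.32, and Aimp1, 0.30, did not pass. Against the inhibitor the ibuprofen group was lower for Eef1e1, at −0.50 (limma adjusted p = 0.021), with −0.30 for Aimp2 and −0.11 for Aimp1 not called. Of 11 genes of tRNA maturation and export 8 fell with the ligands, or 72.7% beside 19.5% of all genes. With ibuprofen 1 rose, or 9.09% beside 10.6% of all genes, which does not set the list apart. Against the inhibitor 5 were lower, or 45.5% beside 19.2%. There 1 was higher, the splicing endonuclease subunit gene Tsen34, or 9.09% beside 21.2%. The 1 gene that rose with ibuprofen was Xpot, the nuclear export receptor for tRNA. It measured 314 and 294 CPM in the inhibitor libraries, 116 and 123 CPM with the ligands and 235 and 194 CPM with ibuprofen. No groups of Xpot overlapped, with changes of −1.32 (limma adjusted p = 2.81e-05), 0.91 (limma adjusted p = 0.000638) and −0.41 (limma adjusted p = 0.012). The tRNA methyltransferase gene Trmt61a fell by 1.45 with the ligands (limma adjusted p = 0.000491), and the 3′ processing nuclease gene Elac2 by 0.80 (limma adjusted p = 0.0049), with differences of neither called on adding ibuprofen. Of 11 other charging and editing genes 3 fell with the ligands (Gatc, Dtd1 and Aarsd1) and 2 with ibuprofen (Sepsecs and Tarsl2), or 27.3% and 18.2% beside 19.5% and 8.68% of all genes. At 3 and 2 genes these counts do not set the list apart. In the third comparison 6 were lower, or 54.5% beside 19.2% of all genes. Of 10 mitochondrial translation factors 3 fell with the ligands (Gfm1, Tsfm and Tufm), a share of 30% beside 19.5% of all genes, and 0 were called with ibuprofen or against the inhibitor. Atf4 itself and 21 other genes of amino acid supply and the ATF4 response had the widest changes of these lists. With the ligands 21 of 22 fell (95.5% beside 19.5% of all genes, median −1.76). With ibuprofen added 19 of 22 rose (86.4% beside 10.6%, median 1.16). Against the inhibitor 15 were lower (68.2% beside 19.2%) and 1 higher (4.55% beside 21.2%), with a median of −0.61.

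**Figure D4:**
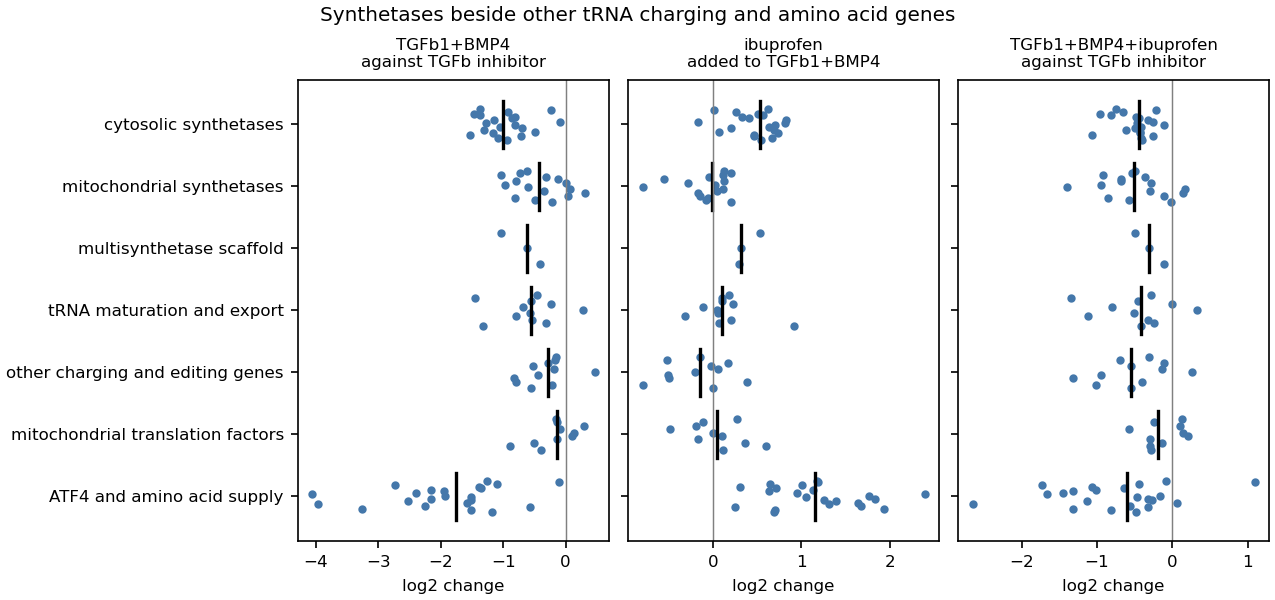
Log2 change of each gene (points) in the 2 synthetase classes and 5 other lists, with the list median as a bar, in the 3 comparisons. The ATF4 and amino acid supply list has medians of −1.76, 1.16 and −0.61, and the cytosolic synthetases −0.996, 0.53 and −0.44.

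Atf4 transcripts measured 463 and 469 CPM in the inhibitor libraries, 209 and 198 CPM with the ligands and 325 and 299 CPM with ibuprofen added. The 3 groups were separate, with log2 changes of −1.17 (limma adjusted p = 3.66e-05), 0.69 (limma adjusted p = 0.00169) and −0.48 (limma adjusted p = 0.00417). Changes of the 20 cytosolic synthetases ranged from −1.53 to −0.09, −0.17 to 0.83 and −1.07 to −0.11 in the same order. These are transcript levels, ATF4 protein was not measured, and a link between Atf4 and the synthetase changes was not tested. Asns, the asparagine synthetase that makes the amino acid rather than charging it, measured 380.4 and 409 CPM, then 74.2 and 89.4 CPM, then 267 and 233 CPM. It was lowest in the ligand libraries and intermediate with ibuprofen, with changes of −2.25, 1.68 and −0.57, all called. Trib3, a pseudokinase that feeds back on ATF4, measured 208 and 217 CPM, then 18.5 and 23.9 CPM, then 105 and 59.4 CPM. Its order of groups was the same, with changes of −3.26, 1.94 and −1.32, all called. Ddit3, the stress factor CHOP, measured 71.4 and 66.5 CPM, then 19.8 and 27.2 CPM, then 48.5 and 27.1 CPM. Its ligand and ibuprofen groups overlapped, with changes of −1.51, 0.70 and −0.81, of which the second was not called (limma adjusted p = 0.0684). The serine synthesis enzyme Psat1 and the folate enzyme Mthfd2 had the smallest adjusted p of the list with the ligands, with log2 changes of −3.96 and −2.16, and Mthfd2 and Asns with ibuprofen, at 1.83 and 1.68.

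Some synthetase values can hold reads of overlapping genes, since it is not given in the sources used here whether counting used the strand. The exons of Hars and Hars2 overlap by 195 bases on opposite strands, those of Mars and Ddit3 by 68, those of Farsb and Sgpp2 by 248, and those of Cars2 and Naxd by 422. Iars2 shares 2034 exon bases with Rab3gap2, which averaged 103 CPM over the libraries beside 88.9 CPM for Iars2. Aars shares 1326 bases with Exosc6 on the same strand, which averaged 5.27 CPM beside 216 CPM for Aars. Nars2 shares 284 bases with C230038L03Rik, which averaged 8.62 CPM beside 14.7 CPM for Nars2. Ears2 shares 89 bases with Ubfd1, at 37.2 CPM beside 7.60 CPM for Ears2. Yars shares 30 bases with C77080, at 253 CPM beside 97.7 CPM for Yars. The partners that overlap Cars, Fars2 and Vars2 averaged at most 4.48 CPM. The part of such reads in the changes was not tested. Iars also shares 7.15% of its 50-base stretches with the copy Gm4849. The authors' deposited table, which gives 1 adjusted p-value per gene without naming a comparison, had it under 0.05 for 14 of the 20 cytosolic and 1 of the 16 mitochondrial genes. In the authors' deposited table the log2 fold change of the ligand group was below 0 for 20 of 20 cytosolic genes, from −1.54 to −0.10, and for 13 of 16 mitochondrial genes.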

How the data were processed

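RNA was measured in 6 libraries of esophageal organoids in 3 groups of 2. Per the submitters' processing notes, the tools were STAR 2.5.3a, HTSeq, Cell Ranger 3.1.0 and edgeR, without a role for each, and the builds GRCm38 and mm10. The authors deposited a signal per gene scaled to about the same total in each library (20010331 to 20013923) and rounded up, so it is not raw counts, and CPM, which is that signal on a common total. The deposited table also holds the authors' log2 fold changes and average expression, a variance score, and 1 p-value and adjusted p-value per gene. Replicates were not pooled.

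From the deposited CPM, TMM factors (trims of 30% and 5%) were computed, genes with at least 1 CPM in at least 2 libraries were kept, and log2 values were taken after adding 1, so that changes of low genes are understated. All 6 libraries entered 1 limma 3.58.1 model in R 4.3.3, which had group as its factor (3 residual degrees of freedom, mean-variance trend, moderated variances). Tests were 2-sided, with Benjamini-Hochberg adjustment over 18241 genes and a threshold of 0.05. Tests on raw counts had been planned in case counts were deposited, and limma was the stated fallback. The step of the scaled values gave the depth, with 99.8% to 99.9% of a library's values on whole steps, and depth intervals were not computed. Library values and their SD are of deposited CPM. Gene positions and exon lengths are from GENCODE vM21, matched by identifier for 52403 genes. The fit was checked on data simulated with a spread fixed beforehand. It recovered 70.1% of 97 genes changed by 1 on the log2 scale and 91.6% of 95 changed by 2. The median estimate was 0.90 of the true change. The simulated data held far fewer changed genes than the 40.1% called in the first comparison, and the Benjamini-Hochberg cutoff depends on that share. The recovered shares therefore describe the simulated data and were not estimated for the real ones. Changes of this size were missed there and can be missed here. The alternatives were other scaling factors, pseudocounts and filters, fits of the compared groups only, the replicate number as a block, and leaving out each library.

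The members and lists were chosen with earlier results of these data known. Values in every library are given for the 6 cytosolic and 3 mitochondrial genes with the smallest adjusted p per comparison, for a called gene moving against its class and for the gene of each class with the largest adjusted p. Lars2, Hars2 and Farsa in the first comparison, Eprs and Qars in the second, and the keratins Krt4, Krt13 and Krt14 with Epcam, were added after their values were seen. From each other list up to 3 genes with the smallest adjusted p, and Atf4, Asns, Ddit3, Trib3 and the scaffold genes, could be named. Another gene that the rule allowed is not reported here. Protein sequences were not used here.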

Additional observations from a re-analysis of the deposited data

How the results depend on the processing

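In every fit of all 20 genes, the 18 cytosolic genes called as lower with the ligands gave 17 or 18, and no synthetase call in any comparison changed direction. With Gars and Kars left out of the cytosolic class, 16, 13 and 14 were called in the 3 comparisons. The other counts of synthetases stayed within 1.5 times of their values in the fits that kept all libraries. With no filter on low values the genes called for ibuprofen fell from 3521 to 2343, and with a pseudocount of 5 the mitochondrial median in the third comparison was −0.38. With 1 library left out, the ranges in the first comparison were 4697 to 7290 genes, 17 to 18 cytosolic and 3 to 8 mitochondrial synthetases, and medians of −1.03 to −0.95 and −0.51 to −0.33. In the second they were 1582 to 2882 genes, 10 to 13 and 0 to 1 synthetases, and medians of 0.43 to 0.59 and −0.04 to 0.02. In the third they were 4660 to 7502 genes, 12 to 17 and 4 to 9 synthetases, and medians of −0.51 to −0.42 and −0.59 to −0.39. A fit that leaves a group with 1 library assumes that it varies like the others. Each such fit also has fewer samples, and the part of this in the counts was not tested.

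Over the alternatives, the results of single synthetases were on the same side of the threshold in 1397 cases, lost the call in 71, gained it in 13, and turned in sign in 31, where the gene was not called and the cause was not tested. With no factor, the reversed log2 differences were −0.010 for Pars2 with the ligands, and −0.014 (Hars), −0.063 (Farsa), −0.032 (Iars2) and −0.050 (Nars2) with ibuprofen. With no filter Pars2 was at −0.0025 with the ligands, and with a minimum of 5 CPM Farsa was at −0.0099 with ibuprofen. With 1 library left out, differences that turned ranged with the ligands −0.094 to 0.14 for Fars2, −0.24 to 0.23 for Pars2. With ibuprofen added they ranged −0.35 to 0.19 for Cars2, −0.25 to 0.13 for Ears2, −0.041 to 0.062 for Farsa, −0.10 to 0.23 for Hars, −0.074 to 0.11 for Nars2, −0.72 to 0.16 for Pars2, −0.010 to 0.26 for Rars2, −0.024 to 0.23 for Vars2, −0.047 to 0.45 for Wars2. In the third comparison they ranged −0.13 to 0.048 for Aars2, −0.024 to 0.29 for Hars2, −0.23 to 0.0058 for Mars, −0.72 to 0.16 for Pars2.

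The labels do not say that equal replicate numbers share a culture, and there are 2 per group. Deviations of libraries with equal numbers correlated at 0.188, 0.173 and 0.256 across genes. With the replicate block, 7942, 4310 and 7960 genes were called, with 18, 15 and 16 cytosolic and 8, 1 and 9 mitochondrial synthetases, and the 1 change among synthetases was Tars with ibuprofen (0.33, limma adjusted p = 0.0455). Count-model tests on recovered reads, listed as alternatives, were not run. The deposited values are scaled and rounded up rather than counts, and the recovered reads served only for depth and for the lowest read number. A comparison of protein identity was not run.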
